A study of Mus musculus with 18 samples.

Results

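The collagen gene family was followed in whole mouse thyroid, across 2 genotypes and 2 diets. Its members were every gene whose symbol reads Col, a number, the letter a and a number, named from the accession of each array probe. There were 44 such genes with 76 probes, out of 19096 genes with a probe on the array. The test took in genes with a probe clearly above background on 4 or more of the 18 arrays, and 42 members passed, out of 17928 genes in all. Col19a1, with 3 probes, and Col28a1, with 1 probe, did not pass: their best probes were above background on 3 arrays and on 1 array.

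All mice were C57BL/6 and 1 month old, weaned at 3 weeks, and either wild type (WT) or Glis3KO2 (KO2), by its name a knockout of Glis3, which encodes a zinc finger transcription factor. The groups were 5 WT and 5 KO2 mice on the NIH31 normal diet, and 4 WT and 4 KO2 mice on a low-iodine diet for 6 days, with 1 array for each mouse. Which part of Glis3 is deleted, in which cells, and the sex of the mice are not given in the sources used here. The title of the series names the question as the part Glis3 plays in making thyroid hormone, and a diet low in iodine is a challenge that raises thyroid-stimulating hormone and makes a normal gland grow.

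Collagens are secreted proteins whose chains wind around each other into a stiff helix, and they form most of the scaffold outside cells. Fibrillar collagens build the tensile fibres of connective tissue. Collagen IV forms the sheet-like net of basement membranes, which in the thyroid lie around every follicle and around the dense capillaries. The remaining classes coat fibrils, form beaded filaments or short nets, bridge basement membranes to fibres, or stay in the cell membrane.

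Values are log2 levels: log2 of the background-subtracted signal minus the 75th percentile of that array, so that 0 is the 75th percentile and 1 unit is a factor of 2. Each gene is given by its brightest tested probe, and levels of different genes are not compared, since probes differ in brightness. Differences are KO2 minus WT on this scale, with the standard error (SE) of a limma fit over all genes. A gene was called when its Benjamini-Hochberg adjusted p was under 0.05.

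The follicular cell gene Tg, which encodes thyroglobulin, lay between 6.41 and 9.04 on all 18 arrays. The Glis3 probe did not separate the genotypes: it read −6.08 to −4.79 in WT and −5.46 to −4.16 in KO2 on the normal diet (adjusted p = 0.73, limma), and −1.60 to −0.74 in WT and −4.06 to −1.49 in KO2 on the low-iodine diet (adjusted p = 0.062, limma). Whether that probe lies in the deleted part is not known here, so it checks no label. Between 60.1% and 90.6% of the spots of an array were well above background. Slides 1 to 3 carried the 10 normal-diet arrays; slides 4 and 5 carried the 8 low-iodine ones and were read with another scanner model and software release, so diet cannot be told apart from array set. Each slide held both genotypes in equal numbers. The mean log2 level of 11 skeletal muscle markers ranged from −4.45 to 5.66 between arrays, and none of them was called between genotypes. In bulk tissue, fewer cells of a type and less RNA per cell cannot be told apart.

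On the normal diet, 8 collagen genes fell in KO2 thyroid and 0 rose, although Col25a1 was called higher with another of its probes. They were the fibrillar genes Col1a1, Col1a2, Col2a1 and Col3a1, the fibril-associated genes Col14a1 and Col16a1, and both multiplexins, Col15a1 and Col18a1. Their differences ran from −0.94 to −2.14. Over all genes, 1.39% were called on this diet, 0.876% lower and 0.513% higher; without scaling of the arrays, 90.6% of the calls over all genes were lower, against 63.1% with it. The median difference of the 42 members was −0.38, against 0.05 over all genes.

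On the low-iodine diet, 18 members fell and 1, Col4a4, rose, while Col4a3 rose with its second probe alone. All 8 genes that fell on the normal diet were among the 18, which is 100% of the shorter list and 44.4% of the longer. Both lists came from 1 fit with a spread shared by all 18 arrays, and the same overlap over all genes is not given here. Over all genes, 15% were called on this diet, 7.18% lower and 7.81% higher; without scaling, 86.5% of the calls over all genes were lower, against 47.9% with it. The members' median difference was −0.72, against −0.02 over all genes. Median scaling moved these medians to −0.57 and 0.13, and no scaling to −0.98 and −0.29. A more negative difference on the low-iodine diet than on the normal diet was found in 31 of 42 members, and in 9566 of all 17928 genes.

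**Figure D1:**
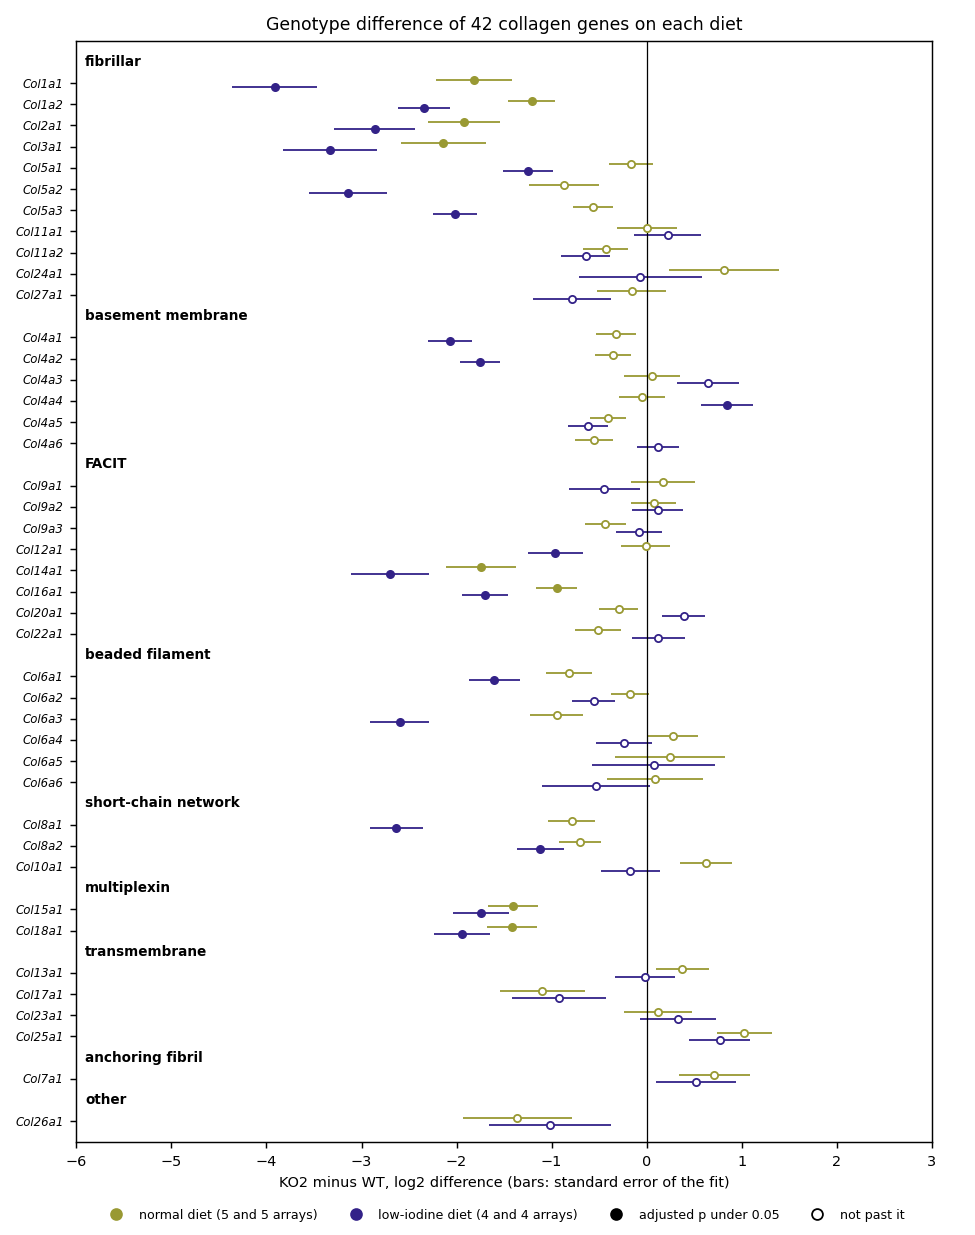
Difference in log2 level between KO2 and WT thyroid (x axis, bars are the standard error of the fit) for the 42 tested collagen genes, grouped by class, on the normal diet (olive) and the low-iodine diet (indigo). Filled points passed an adjusted p of 0.05: 8 on the normal diet, all below 0, and 19 on the low-iodine diet, of which 18 lie below 0 and Col4a4 above.

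These changes lay within slides too. On slides 1, 2 and 3 the members' median difference was −0.41, −0.42 and −0.59, and on slides 4 and 5 it was −0.83 and −0.66. All 8 lower calls of the normal diet and all 18 of the low-iodine diet were lower in KO2 on every slide. The calls were made from these same arrays, so this gives no separate support. Of all tested members, 45.2% were lower in KO2 on every normal-diet slide, against 16.5% of all genes. On the low-iodine slides the shares were 59.5% and 28.3%. With slide as a block in the fit, the same 8 were called on the normal diet. The normal-diet calls rested on the spread of all 18 arrays: a limma fit of the 10 normal-diet arrays alone called 0 members and 3 genes in all. In that fit 19 members, the 8 among them, had an unadjusted p under 0.05, as did 2574 of all genes, and the lowest adjusted p of a member was 0.075. The 8 low-iodine arrays fitted alone still gave 19 lower members.

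Collagen I is the chief fibre of connective tissue and is assembled from the products of Col1a1 and Col1a2. On the normal diet, Col1a1 read 3.01, 3.24, 3.81, 3.02 and 3.30 on the WT arrays and 0.07, 1.80, 1.42, 2.11 and 1.91 on the KO2 arrays. Every KO2 array lay below every WT array, by 0.90 at the closest, and KO2 replicate 1 stood lowest. The difference was −1.82 ± 0.40 (SE), 3.52-fold lower (adjusted p = 0.032, limma). With low iodine the WT arrays read 3.31, 2.75, 2.99 and 2.70, and the KO2 arrays −0.24, −1.24, −2.27 and −0.16. The groups did not overlap, and the difference of −3.92 ± 0.45, 15.1-fold lower, was the largest of the 42 tested (adjusted p = 3.4e-05, limma).

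The other chain fell on both diets as well. Col1a2 read 3.73, 4.10, 4.61, 3.88 and 4.08 in WT and 1.84, 2.96, 3.01, 3.26 and 3.30 in KO2 on the normal diet, again without overlap and again with KO2 replicate 1 lowest. Its difference was −1.21 ± 0.25 (adjusted p = 0.019, limma). Under low iodine, it read 4.62, 4.27, 4.52 and 4.19 in WT and 2.32, 1.92, 1.75 and 2.23 in KO2, groups far apart, with a difference of −2.34 ± 0.27 (adjusted p = 3.9e-05, limma). The normal-diet call of Col1a2 was lost with median scaling, in the normal-diet arrays alone and without WT replicate 3. Col1a1 had 3 probes: the one used and a second fell by 1.82 and 1.75 on the normal diet, while the third one differed by −0.08 ± 0.45 (adjusted p = 0.97, limma), and all 3 fell on the low-iodine diet, by 3.54 to 3.97. The normal-diet call of Col1a1 was lost in 9 of 28 alternative settings, among them the fits without WT replicate 2, 3 or 5 or without KO2 replicate 1 or 3.

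Collagen III, made from Col3a1 alone, shares fibres with collagen I in soft tissue and vessel walls. Col3a1 read 3.89, 4.19, 4.89, 4.01 and 4.37 in WT and 0.48, 2.33, 1.63, 3.62 and 2.59 in KO2 on the normal diet. The KO2 arrays were spread over 3 units, and KO2 replicate 4 lay just under the lowest WT array. The difference was −2.14 ± 0.44, 4.40-fold lower (adjusted p = 0.022, limma). In the low-iodine groups the levels were 5.04, 4.48, 4.82 and 4.54 in WT and 1.79, 1.33, 0.40 and 2.03 in KO2, apart on every array, a difference of −3.33 ± 0.50, 10.1-fold lower (adjusted p = 0.00029, limma). Its second probe fell by 3.53 on the low-iodine diet and differed by −1.15 ± 0.29 on the normal diet (adjusted p = 0.069, limma). The normal-diet call of Col3a1 was lost in the normal-diet arrays alone and without WT replicate 3 or 5 or KO2 replicate 3.

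Collagen V sits inside collagen I fibrils and sets where they start and how thick they grow; its chains come from Col5a1, Col5a2 and Col5a3, and none was called on the normal diet. Col5a2, the next collagen gene to Col3a1 on its chromosome, read −0.88, −0.57, −0.16, −0.94 and −0.50 in WT and −2.30, −1.47, −1.26, −1.40 and −0.97 in KO2 on that diet. These groups did not overlap but came within 0.03 of each other, and the difference was −0.87 ± 0.36 (adjusted p = 0.30, limma). After the low-iodine diet it read 0.32, −0.36, 0.08 and −0.35 in WT and −4.0, −3.31, −3.92 and −1.67 in KO2. KO2 replicate 4 was the highest of the KO2 arrays and still below all WT arrays; the difference was −3.14 ± 0.41, 8.85-fold lower (adjusted p = 9.8e-05, limma).

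Col5a1 and Col5a3 differed by less. Col5a1 read 0.69, 0.63, 1.17, 0.40 and 0.95 in WT and 0.15, 0.90, 1.22, 0.08 and 0.69 in KO2 on the normal diet, overlapping groups with a difference of −0.16 ± 0.23 (adjusted p = 0.85, limma). Among the low-iodine mice it read 3.35, 2.92, 3.15 and 3.35 in WT against 2.20, 1.79, 2.34 and 1.45 in KO2, which did not overlap, and fell by 1.25 ± 0.26 (adjusted p = 0.0040, limma). That call was lost when arrays were scaled to their median (adjusted p = 0.053), and a second Col5a1 probe differed by −0.15 ± 0.44 (adjusted p = 0.87). Col5a3, the least widespread chain of collagen V, read 0.02, 0.59, 1.07, 0.12 and 0.46 in WT and −0.42, 0.05, 0.18, 0.00 and −0.37 in KO2 on the normal diet, with overlap. On the low-iodine diet the WT arrays read 2.31, 2.13, 2.38 and 2.47 and the KO2 arrays 0.47, −0.22, 0.29 and 0.68, a clear gap and a difference of −2.02 ± 0.23 (adjusted p = 3.5e-05, limma). Its second probe differed by −0.77 ± 0.50 (adjusted p = 0.36).

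**Figure D2:**
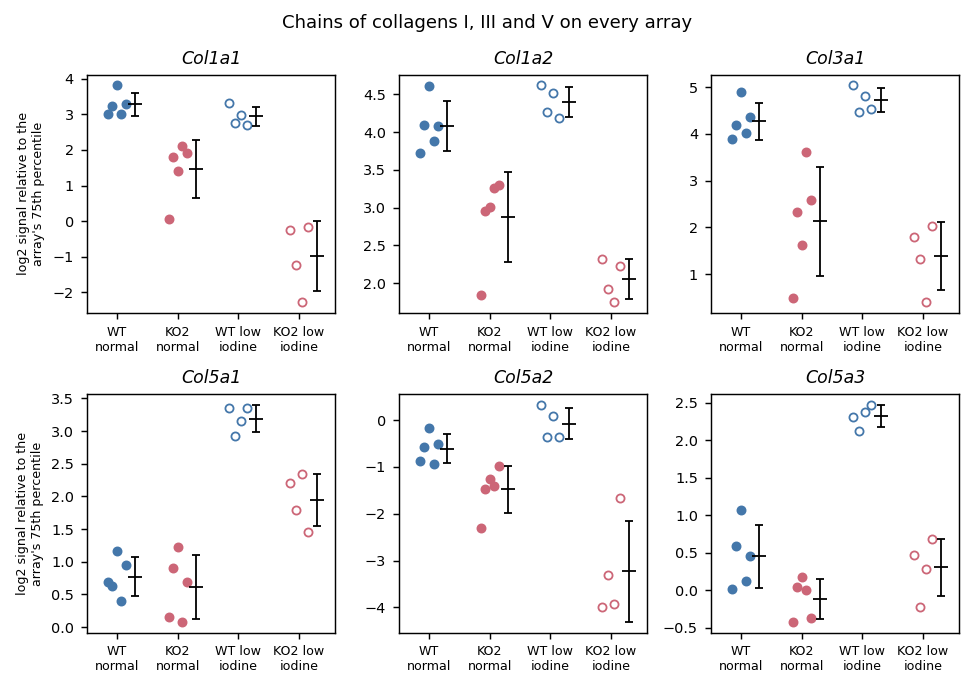
Log2 level of 6 fibrillar collagen genes (y axis, relative to the 75th percentile of each array) on every array of the 4 groups (x axis), WT in blue and KO2 in red, filled for the normal and open for the low-iodine diet; bars show mean and SD. Col1a1, Col1a2 and Col3a1 are lower in KO2 on both diets, while Col5a1 and Col5a3 overlap on the normal diet and separate on the low-iodine diet.

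Col2a1 encodes the collagen of cartilage and was called on both diets. It read −0.83, −1.53, −0.28, −0.61 and −0.08 in WT and −3.90, −1.98, −3.28, −1.61 and −2.16 in KO2 on the normal diet, close but without overlap, a difference of −1.92 ± 0.38 (adjusted p = 0.016, limma). With low iodine it read 3.50, 3.18, 3.39 and 3.23 in WT and 0.77, 0.46, −0.16 and 0.78 in KO2, a difference of −2.86 ± 0.42 (adjusted p = 0.00028, limma). A second Col2a1 probe was not called, at −0.13 ± 0.29 on the normal diet (adjusted p = 0.92) and −0.65 ± 0.33 on the low-iodine diet (adjusted p = 0.21). The normal-diet call was lost in the normal-diet arrays alone and without WT replicate 5 or KO2 replicate 3. Of 10 other cartilage markers tested, 0 were called on the normal diet and 3 fell on the low-iodine diet: Cnmd (chondromodulin) by 3.37, Comp (cartilage oligomeric matrix protein) by 1.98 and Acan (aggrecan) by 0.98. Sox9, the regulator of cartilage cells, differed by −0.16 (adjusted p = 0.74). The mean level of the cartilage list ranged from −3.31 to −2.66 in WT and −3.98 to −2.91 in KO2 on the normal diet, and from −2.87 to −1.65 and −3.27 to −2.98 on the low-iodine diet; in each normal-diet group 1 marker was above background on no array. Their part in the Col2a1 result was not tested.

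The other fibrillar genes, Col11a1 and Col11a2 (collagen XI, inside cartilage fibrils), Col24a1 and Col27a1, were called in neither genotype comparison. Col11a1 read −3.05, −3.04, −3.01, −2.35 and −3.46 in WT and −2.73, −2.99, −2.43, −3.23 and −3.52 in KO2 on the normal diet, and −0.65, −1.30, −0.79 and −2.27 against −0.34, −1.19, −1.62 and −0.98 on the low-iodine diet. Its groups overlapped on both diets. Col11a2 read −2.0, −2.10, −2.02, −2.03 and −2.07 in WT and −2.25, −2.37, −2.29, −2.33 and −3.14 in KO2 on the normal diet. Those groups did not overlap, yet the difference was only −0.43 ± 0.23 (adjusted p = 0.45, limma). Under low iodine, Col11a2 read −3.37, −2.27, −3.14 and −3.46 against −3.60, −3.94, −4.09 and −3.18, with overlap.

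Col24a1, a minor fibrillar gene, was well above background on 0 of 5 WT and 1 of 5 KO2 arrays of the normal diet and on 2 and 3 of 4 arrays of the low-iodine diet. It ranged from −8.63 to −6.13 in WT and −7.84 to −5.72 in KO2 on the normal diet, and read −5.47, −2.48, −5.32 and −5.12 against −4.77, −4.55, −4.51 and −4.83 on the low-iodine diet. WT replicate 2 of the low-iodine diet stood far above the rest. Col27a1, a fibrillar collagen of growing cartilage, ranged from −4.20 to −3.04 in WT and −4.50 to −2.70 in KO2 on the normal diet, and read −2.88, −1.84, −2.16 and −1.20 against −2.54, −2.65, −2.56 and −3.49 on the low-iodine diet, a difference of −0.79 ± 0.41 (adjusted p = 0.23, limma). In all, 4 of 11 fibrillar genes fell on the normal diet and 7 of 11 on the low-iodine diet, where the median of the class was −2.02.

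The windows before the starts of 2 of these genes carry different short sequence words. They are shown because Col1a2 and Col3a1 fell together on both diets. Each is the 150 bases before the annotated start, from RefSeq in build GRCm38.p6; capitals mark CCAAT in Col1a2 (chr6:4505468-4505617, plus strand) and TATAAA in Col3a1 (chr1:45311388-45311537, plus strand).
Col1a2: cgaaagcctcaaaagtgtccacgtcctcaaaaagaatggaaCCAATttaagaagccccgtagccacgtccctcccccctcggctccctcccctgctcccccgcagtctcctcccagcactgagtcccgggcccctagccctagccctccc
Col3a1: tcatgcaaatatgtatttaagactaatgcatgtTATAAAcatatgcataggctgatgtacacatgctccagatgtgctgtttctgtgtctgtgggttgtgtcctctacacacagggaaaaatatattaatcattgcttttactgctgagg

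For 35 of the 44 members the reference held 38 such windows, each from 250 bases before to 50 after a start, and both strands were searched for 3 words, where a letter may serve more than 1 word. CCAAT was found in 34.2% of the collagen windows and 37.4% of all 32851 windows. TATAAA was found in 13.2% and 13.6%, and GGGCGG, the core of a GC box, in 60.5% and 35.7%. These shares describe letters in a window and were set against no expression value.

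Collagen IV has 6 chains in 3 neighbouring pairs. Col4a1 and Col4a2, the chains of nearly every basement membrane, were called lower on the low-iodine diet. Col4a1 read 1.91, 2.27, 2.64, 2.23 and 2.26 in WT and 1.20, 2.32, 2.39, 1.73 and 2.07 in KO2 on the normal diet, mixed groups with a difference of −0.32 ± 0.21 (adjusted p = 0.56, limma). In the low-iodine groups the WT arrays read 4.05, 3.98, 4.15 and 4.61 and the KO2 arrays 2.17, 2.13, 1.99 and 2.22. The gap between the groups was wide, and the difference was −2.07 ± 0.23, 4.20-fold lower (adjusted p = 3.0e-05, limma).

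Col4a2 read 2.40, 2.22, 2.73, 2.68 and 2.63 in WT and 1.93, 2.29, 2.49, 1.57 and 2.63 in KO2 on the normal diet, with overlap, and differed by −0.35 ± 0.19 (adjusted p = 0.46, limma). After the low-iodine diet it read 3.87, 3.47, 3.78 and 3.96 against 1.74, 2.23, 2.09 and 2.0, without overlap, and the difference was −1.75 ± 0.21 (adjusted p = 5.1e-05, limma). Both genes had a second probe, and those fell by 2.18 and 2.15 on the low-iodine diet. The second Col4a1 probe also passed the test on the normal diet, at −0.77 ± 0.18 (adjusted p = 0.047). The 2 genes are read away from each other, and their annotated starts overlap by 22 bases, printed as the plus strand of chr8:11312805-11312826 (RefSeq, GRCm38.p6) with a GGGCGG in capitals.
Col4a1 and Col4a2: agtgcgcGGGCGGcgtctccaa

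Col4a3 and Col4a4 encode chains of specialised basement membranes such as that of the kidney filter, and Col4a4 was the single member that rose by the probes used. Among the low-iodine mice Col4a4 read −2.86, −2.75, −2.92 and −3.41 in WT and −1.14, −2.73, −2.52 and −2.16 in KO2. The groups were 0.02 apart, KO2 replicate 1 stood highest, and the difference was 0.85 ± 0.27 (adjusted p = 0.044, limma). That call was lost in 19 of 28 alternatives, among them median scaling, the fit of the low-iodine arrays alone and the fits that left out any 1 WT array of that diet. On the normal diet Col4a4 read 1.52, 1.69, 1.54, 1.35 and 1.47 in WT and 1.57, 0.99, 1.76, 1.5 and 1.51 in KO2, with overlap.

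Col4a3 overlapped on both diets. It read −3.80, −2.53, −2.87, −2.60 and −3.46 in WT and −2.98, −3.52, −2.41, −2.76 and −3.29 in KO2 on the normal diet, and −2.79, −2.40, −3.27 and −3.49 against −2.79, −1.85, −2.62 and −2.12 on the low-iodine diet. Its differences were 0.06 ± 0.29 and 0.64 ± 0.33, and neither passed the test. A second Col4a3 probe, above background on 16 arrays, rose by 1.36 ± 0.40 on the low-iodine diet (adjusted p = 0.034, limma) and differed by −0.43 ± 0.36 on the normal diet (adjusted p = 0.73), so whether Col4a3 was called depends on the probe.

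Col4a5 and Col4a6, the X-linked pair, were not called between genotypes. Col4a5 read −3.41, −3.32, −3.05, −2.70 and −3.22 in WT and −2.97, −4.16, −3.40, −3.72 and −3.47 in KO2 on the normal diet, with overlap. On the low-iodine diet it read 0.29, 0.04, 0.11 and 0.38 against −0.47, −0.35, −0.29 and −0.52; all KO2 arrays were lower, and the difference was −0.61 ± 0.21 (adjusted p = 0.061, limma). Col4a6 read 2.94, 2.84, 3.1, 3.17 and 3.07 in WT and 2.44, 2.04, 2.53, 2.79 and 2.55 in KO2 on the normal diet, without overlap, a difference of −0.55 ± 0.20 (adjusted p = 0.22, limma). With low iodine it read 2.66, 1.55, 2.21 and 2.36 against 2.73, 1.92, 2.19 and 2.42, which overlapped. Its second probe disagreed there: it fell by 0.75 (adjusted p = 0.027), against 0.12 for the probe used and 0.42 ± 0.20 for the third (adjusted p = 0.20), so the direction of Col4a6 on that diet depends on the probe.

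**Figure D3:**
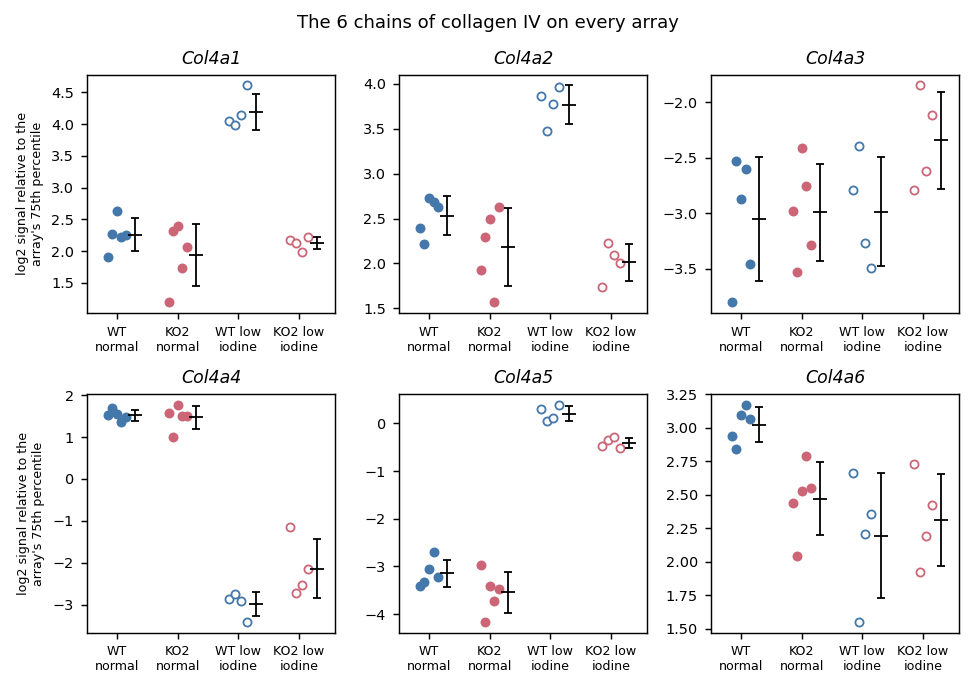
Log2 level of the 6 collagen IV genes (y axis, relative to the 75th percentile of each array) on every array of the 4 groups (x axis), WT in blue and KO2 in red, filled for the normal and open for the low-iodine diet; bars show mean and SD. Col4a1 and Col4a2 overlap on the normal diet and separate by over 1 unit on the low-iodine diet, where Col4a4 is slightly higher in KO2.

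Some endothelial markers fell on the low-iodine diet, where Col4a1 and Col4a2 fell and 7.18% of all genes were called lower. Of 10 tested, 0 were called on the normal diet and 5 fell on the low-iodine diet: Pecam1 by 1.23, Cdh5 by 1.47, Tek by 1.33, Tie1 by 0.98 and Esam by 0.81. The other 5 were not called, among them Vwf at 0.31 and Cldn5 at 0.79. The mean level of the list was 0.60 to 1.35 in WT and 0.56 to 1.54 in KO2 on the normal diet, and 1.42 to 1.69 against 0.93 to 1.08 on the low-iodine diet; each marker was above background on at least 1 array of every group. Pericyte and smooth muscle markers, of the cells that wrap vessels, moved on that diet too. Of 11 tested, 0 were called on the normal diet and 2 fell on the low-iodine diet, Rgs5 by 1.22 and Cspg4 by 1.20; 10 of the 11 differences were below 0 there. Pdgfrb, the receptor commonly used to define pericytes, differed by −0.56 (adjusted p = 0.20) and Acta2, smooth muscle actin, by −0.35 (adjusted p = 0.42). The mean level of the list was 0.56 to 1.61 in WT and 0.78 to 1.5 in KO2 on the normal diet, and 1.45 to 1.77 against 0.90 to 1.15 on the low-iodine diet, with each marker above background on at least 1 array of every group. The part of these cells in the collagen results was not tested.

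Fibril-associated collagens sit on the surface of collagen fibres. Col14a1, which limits how thick fibrils grow, read 0.99, 1.14, 1.35, 1.01 and 0.99 in WT and −1.66, −0.38, −1.37, 0.59 and −0.43 in KO2 on the normal diet. The WT arrays were tight and all KO2 arrays were below them; the difference was −1.75 ± 0.37 (adjusted p = 0.024, limma). Under low iodine, it read 1.77, 0.75, 1.39 and 0.74 against −0.78, −1.23, −2.20 and −1.93, again without overlap, at −2.70 ± 0.41 (adjusted p = 0.00036, limma). A dimmer Col14a1 probe, above background on 9 arrays, was called on the low-iodine diet at −2.07 but not on the normal diet at −0.56. The normal-diet call of the brighter probe was lost in 8 of 28 alternatives, among them the fits without WT replicate 2, 3 or 5 or KO2 replicate 1 or 3.

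Col16a1, which links fibrils to their surroundings, read 0.61, 0.77, 1.16, 1.02 and 0.66 in WT and −0.28, −0.06, −0.43, 0.28 and −0.01 in KO2 on the normal diet. There was no overlap, and it fell by 0.94 ± 0.22 (adjusted p = 0.039, limma), the least stable of the 8 calls: 16 of 28 alternatives lost it, among them median and quantile scaling and 8 of the 10 fits that left out a normal-diet array (each of WT replicates 2 to 5 and KO2 replicates 1, 2, 3 and 5). In the low-iodine groups it read 0.71, 0.57, 0.36 and 0.61 against −1.16, −1.16, −1.84 and −0.39, apart on every array, at −1.70 ± 0.24 (adjusted p = 0.00020, limma). A second Col16a1 probe, above background on 9 arrays, was called on neither diet, at −0.23 ± 0.44 (adjusted p = 0.91) and −0.55 ± 0.50 (adjusted p = 0.55).

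Col12a1, abundant in tendon and other loaded tissue, was called on the low-iodine diet alone. It read 0.17, −0.31, −0.17 and −0.42 in WT and −0.75, −1.01, −1.77 and −1.04 in KO2 there, without overlap, a difference of −0.96 ± 0.29 (adjusted p = 0.033, limma), and the call was lost in 6 of 28 alternatives, including median scaling and the fits without WT replicate 1 or 3 or KO2 replicate 3 or 4 of that diet. On the normal diet its levels overlapped, from −2.81 to −2.26 in WT and −3.44 to −1.94 in KO2. The difference between the 2 diets' effects was −0.95 ± 0.39 and did not pass the test (adjusted p = 0.27). A second Col12a1 probe differed by −0.85 ± 0.35 on the low-iodine diet and was not called (adjusted p = 0.12).

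The other 5 tested genes of this class were not called. They were the collagen IX genes Col9a1, Col9a2 and Col9a3, which decorate cartilage fibrils, and Col20a1 and Col22a1. Their differences lay between −0.51 (Col22a1) and 0.18 (Col9a1) on the normal diet and between −0.44 (Col9a1) and 0.39 (Col20a1) on the low-iodine diet. Col20a1 on the low-iodine diet read −1.08, −0.96, −1.12 and −1.23 in WT and −0.77, −0.63, −0.68 and −0.74 in KO2, which did not overlap, at 0.39 ± 0.23 (adjusted p = 0.29, limma).

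The multiplexins bridge basement membranes and the tissue beneath them, and both fell on both diets. Col15a1, found at vessels and muscle, read −0.40, 0.09, −0.30, 0.00 and −0.45 in WT and −2.49, −1.10, −1.73, −0.89 and −1.87 in KO2 on the normal diet, without overlap, at −1.41 ± 0.26 (adjusted p = 0.011, limma). After the low-iodine diet it read 0.18, 0.48, 0.29 and 0.64 against −0.81, −1.35, −1.31 and −1.89, also apart, at −1.74 ± 0.29 (adjusted p = 0.00087, limma). Its second probe fell as well, by 1.18 and 1.71.

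Col18a1, the source of the fragment endostatin, was the only one of the 8 normal-diet calls whose groups overlapped. It read 5.27, 4.43, 4.56, 4.47 and 4.87 in WT and 2.95, 2.91, 2.93, 4.48 and 3.22 in KO2: KO2 replicate 4 lay among the WT arrays, and the other KO2 arrays were over 1 unit below them. The difference was −1.42 ± 0.26 (adjusted p = 0.011, limma). Among the low-iodine mice it read 2.40, 2.08, 2.41 and 2.25 against 0.51, 0.56, 0.28 and 0.01, tight groups far apart, at −1.94 ± 0.29 (adjusted p = 0.00034, limma), and its second probe fell by 1.45 and 1.83. The normal-diet calls of Col15a1 and Col18a1 were each lost in 1 of 28 alternatives, the fit of the normal-diet arrays alone.

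Collagen VI forms beaded filaments close to cells, in its common form from the products of Col6a1, Col6a2 and Col6a3. Col6a3 read 0.95, 1.38, 1.36, 0.85 and 1.00 in WT and −0.07, 0.01, 0.23, 0.73 and −0.08 in KO2 on the normal diet, without overlap, at −0.94 ± 0.28 (adjusted p = 0.12, limma). On the low-iodine diet it read 1.47, 0.83, 1.17 and 0.73 against −1.21, −1.54, −2.65 and −0.79, at −2.60 ± 0.31, 6.06-fold lower (adjusted p = 4.9e-05, limma). A second probe fell by 2.12 there, while the third, a dim probe above background on 6 arrays, differed by 0.27 ± 0.52 in the other direction.

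Col6a1 read 0.48, 0.82, 0.91, 0.40 and 0.62 in WT and −0.42, −0.24, −0.10, −0.39 and 0.30 in KO2 on the normal diet, groups that did not overlap, at −0.82 ± 0.24 (adjusted p = 0.11, limma). With low iodine it read 0.51, 0.04, 0.64 and 0.14 against −0.79, −1.03, −2.25 and −1.02; KO2 replicate 3 stood lowest, and the gene fell by 1.60 ± 0.27 (adjusted p = 0.00079, limma). Col6a2, its neighbour on the chromosome, was not called: it read 3.17, 2.90, 3.1 and 2.96 against 2.77, 2.73, 2.11 and 2.29, without overlap, at −0.56 ± 0.22 (adjusted p = 0.10, limma). The later chains Col6a4, Col6a5 and Col6a6 differed by −0.54 to 0.07 on the low-iodine diet and 0.08 to 0.27 on the normal diet, and none was called. On the normal diet Col6a5 was well above background on 1 WT array and 0 KO2 arrays, and Col6a6 on 0 of either.

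Short-chain collagens form nets in vessel walls and the eye (Col8a1, Col8a2) and in growing cartilage (Col10a1). Col8a1 read 1.68, 2.22, 2.40, 2.43 and 1.62 in WT and 1.34, 0.62, 1.37, 1.67 and 1.40 in KO2 on the normal diet, where KO2 replicate 4 overlapped the lowest WT array, at −0.79 ± 0.25 (adjusted p = 0.14, limma). Under low iodine, it read 0.06, −0.41, −0.19 and −0.54 against −3.40, −2.47, −2.43 and −3.34, far apart, at −2.64 ± 0.28, 6.22-fold lower (adjusted p = 2.0e-05, limma), and a second probe fell by 2.78. Col8a2 read −0.27, −0.53, −0.90 and −1.11 against −1.29, −2.06, −1.58 and −2.37 there, without overlap, and fell by 1.12 ± 0.25 (adjusted p = 0.0058, limma). Its normal-diet levels overlapped, −3.46 to −2.68 in WT and −3.91 to −3.29 in KO2, at −0.70 ± 0.22 (adjusted p = 0.14). Col10a1 was well above background on no normal-diet array, and on the low-iodine diet it read −2.41, −2.03, −2.61 and −2.67 in WT and −2.98, −2.56, −2.58 and −2.30 in KO2, with overlap.

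The membrane-spanning collagens Col13a1, Col17a1 (the hemidesmosome collagen of skin), Col23a1 and Col25a1 were not called on either diet, with differences of 0.38, −1.10, 0.12 and 1.03 on the normal diet and −0.01, −0.92, 0.33 and 0.77 on the low-iodine diet. Col25a1, an axon and muscle collagen, read −3.1, −3.54, −3.14, −3.48 and −3.26 in WT and −2.19, −1.89, −1.61, −3.41 and −2.28 in KO2 on the normal diet; 4 of the 5 KO2 arrays were above all WT arrays, and the adjusted p was 0.092 (limma). A second Col25a1 probe, above background on 13 arrays, rose by 1.61 ± 0.38 on that diet (adjusted p = 0.049, limma), and the third one differed by 0.53 (adjusted p = 0.67). With the probe used, Col25a1 was called higher there with another background correction (adjusted p = 0.049), with the replicate block (adjusted p = 0.040) and without KO2 replicate 4 (adjusted p = 0.0035). Col17a1 was well above background on 3 WT arrays and 1 KO2 array of the low-iodine diet. Col7a1, which anchors the skin's basement membrane, read 1.0, 0.99, 0.97 and 0.98 in WT and 1.69, 1.47, 1.28 and 1.57 in KO2 on the low-iodine diet, without overlap, at 0.52 ± 0.42 (adjusted p = 0.49, limma). Col26a1 ranged from −2.11 to −1.03 in WT and −4.60 to −1.33 in KO2 on the normal diet, and it was well above background on 3 WT arrays and 1 KO2 array of the low-iodine diet; it was not called.

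By class, then, on the low-iodine diet 7 of 11 fibrillar genes fell, 2 of 6 of collagen IV with 1 higher, 3 of 8 fibril-associated genes, 2 of 6 of collagen VI, 2 of 3 short-chain genes and both multiplexins, but 0 of 4 membrane-spanning genes. Every array of KO2 lay below every array of WT for 12 members on the normal diet (1.63% of all genes) and for 20 on the low-iodine diet (9.1% of all genes). The reverse held for 0 members on the normal diet (1.89% of all genes) and 3 on the low-iodine diet (10.6%), Col4a4, Col7a1 and Col20a1. In all, 23 of 42 members were called in neither genotype comparison.

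Fibroblasts make most fibrillar collagen, and their markers moved in part with it. Of 11 tested, 1 fell on the normal diet (Thy1, by 1.53), while on the low-iodine diet 4 fell (Mfap5 by 2.18, Pi16 by 2.38, Thy1 by 1.65 and Cd34 by 0.80) and 2 rose (Dcn by 0.99 and Gsn by 0.73). Pdgfra, the receptor commonly used to define fibroblasts, differed by −0.13 and 0.41 and was not called on either diet. The mean level of the list was 2.42 to 2.89 in WT and 1.54 to 2.47 in KO2 on the normal diet, and 0.94 to 1.30 against 0.27 to 0.72 on the low-iodine diet; each marker was above background on at least 1 array of every group. Of 10 markers of dividing cells, 9 fell on the normal diet and 10 on the low-iodine diet. Over all genes, 0.876% and 7.18% were called lower. The mean level of these markers was −2.48 to 0.32 in WT and −5.24 to −2.51 in KO2 on the normal diet. On the low-iodine diet it was 0.78 to 1.25 in WT and −3.67 to −3.43 in KO2. In that low-iodine KO2 group 1 of these markers was above background on no array.

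Some markers of other epithelia were also called lower on the normal diet. Of 7 thymic epithelium markers, 3 fell on the normal diet, Psmb11 by 5.19, Ccl25 by 3.46 and Prss16 by 4.37, and all 7 differences were below 0. Foxn1, the regulator that defines this cell type, differed by −1.23 (adjusted p = 0.46). The mean level of the list was −3.24 to 1.08 in WT and −4.10 to −0.95 in KO2 on that diet, overlapping ranges, and −1.89 to −1.01 against −2.01 to −1.53 on the low-iodine diet, where 0 were called. Of 9 markers of basal and squamous epithelium, the keratin genes Krt5 and Krt14 fell on the normal diet by 2.74 and 1.51, and Trp63, which defines basal cells, differed by −0.04. The list mean was −0.63 to −0.36 in WT and −1.49 to −0.71 in KO2 there, without overlap. On the low-iodine diet it was −1.40 to −0.75 against −1.38 to −0.86, and only Perp was called, higher by 1.05. Each marker of both lists was above background on at least 1 array of every group. Of 8 adipocyte and 7 Schwann cell markers tested, 0 were called on either diet. On the normal diet the adipocyte list mean was 1.19 on KO2 replicate 1 and 2.95 to 3.99 on the other KO2 arrays. In that KO2 group 1 adipocyte marker was above background on no array. The part of cell numbers, of cell division or of other tissue in the collagen results was not tested.

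The genotype effect differed between diets for 4 members by a test of that difference, the low-iodine difference minus the normal-diet difference: Col4a1 at −1.75 ± 0.31 (adjusted p = 0.013, limma), Col8a1 at −1.85 ± 0.37 (adjusted p = 0.023), Col5a3 at −1.45 ± 0.31 (adjusted p = 0.031) and Col4a2 at −1.41 ± 0.28 (adjusted p = 0.023). All 4 were more negative on the low-iodine diet, and 0 members went the other way. Over all genes 1.22% were called in this test, 0.865% more negative and 0.357% more positive. A shift shared by all arrays of a diet cancels in it, while one that acts on the genotypes unequally does not. With median scaling, which raised the median of all genes in this test from −0.04 to 0.13, 0 members were called, and with quantile scaling 9 were. Without WT replicate 1 of the low-iodine diet 1 member was called, without WT replicate 4 of it 2, and without KO2 replicate 1 of the normal diet 7. The call of Col4a1 was lost with median scaling alone, that of Col4a2 also without scaling or without WT replicate 1 or 4 of the low-iodine diet, that of Col8a1 also with another background correction or without WT replicate 1 or KO2 replicate 4 of that diet, and that of Col5a3 in 10 of 27 alternatives, 8 of which left out 1 array: WT replicate 1 or 4 or KO2 replicate 2 or 3 of the normal diet, or WT replicate 1, 3 or 4 or KO2 replicate 2 of the low-iodine diet.

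The 4 genes did this in different ways. In WT, Col4a1, Col4a2 and Col5a3 were higher on the low-iodine arrays than on the normal-diet arrays by 1.94, 1.24 and 1.87, while in KO2 the same comparison gave 0.19, −0.17 and 0.42. Col8a1 was lower on the low-iodine arrays in both genotypes, by −2.34 in WT and −4.19 in KO2; its second probe was higher there, by 4.98 and 2.92, so the direction along the diet depends on the probe. The difference between genotypes did not, since the second probe also passed the test of the difference at −2.05 ± 0.40 (adjusted p = 0.019). For Col5a3 the second probe gave −0.70 ± 0.67 (adjusted p = 0.69). Other probes of Col1a1 (−2.22 and −3.46, adjusted p = 0.019 and 0.018) and of Col3a1 (−2.37, adjusted p = 0.014) passed it where the probes used did not (−2.10 and −1.20, adjusted p = 0.098 and 0.44).

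The upstream windows of the remaining pair of the 4 genes are given because both passed the test of the difference between diets, as the 150 bases before the start in the direction of the gene (RefSeq, GRCm38.p6). Capitals mark the reverse complement of GGGCGG, which is read CCGCCC here, in Col5a3 (chr9:20815068-20815217, minus strand) and in Col8a1 (chr16:57754738-57754887, minus strand). In Col5a3 alone they also mark CCAAT.
Col5a3: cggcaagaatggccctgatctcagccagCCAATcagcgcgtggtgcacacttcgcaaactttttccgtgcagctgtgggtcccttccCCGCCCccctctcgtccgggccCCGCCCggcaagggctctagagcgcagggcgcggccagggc
Col8a1: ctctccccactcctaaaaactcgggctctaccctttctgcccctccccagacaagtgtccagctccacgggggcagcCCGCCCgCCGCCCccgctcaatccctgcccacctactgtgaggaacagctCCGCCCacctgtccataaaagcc

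Comparing the diets within a genotype gave calls for most of the genome, 75.9% of all genes in WT (36.5% lower, 39.4% higher) and 74.4% in KO2 (36.9% lower, 37.5% higher), and there array set and diet cannot be told apart. Of the members, 29 were called in WT (20 higher and 9 lower on the low-iodine arrays) and 30 in KO2 (16 higher and 14 lower), which are 69.0% and 71.4% of those tested and near that background. With median scaling, which moved the median of all genes to −0.91 in WT and −0.80 in KO2, the split became 14 higher and 17 lower in WT and 11 higher and 21 lower in KO2. With the mean of a gene's probes it moved the other way, to 28 higher and 7 lower in WT and 22 higher and 11 lower in KO2. Of the called members with several probes, 3 of 16 in WT and 7 of 16 in KO2 had a probe that went the other way, among them Col2a1 in WT, at 3.99 with the probe used and −1.17 with the second, and Col16a1 in KO2, at −1.04 and 3.45. The direction of a member between diets therefore depends on the probe in these cases. Members below background on the normal-diet arrays have only a bound: Col10a1 was at least 14.7-fold higher on the low-iodine arrays in WT and at least 8.54-fold in KO2, and Col6a6 at least 5.91-fold and 2.80-fold. A bound sets the mean of the bright group against the dimmest signal that counted as above background, or the dim probe's own where higher. Both comparisons use the same arrays as the genotype comparisons.

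Genes that make, process, anchor and sense collagen were read from 6 lists, with 59 tested genes. On the normal diet 0 of them were called, with a median of −0.29. In the low-iodine groups 29 fell and 1 rose, with a median of −0.77, against 7.18% and 7.81% of all genes. Every list had members that fell. Of the genes named here, the low-iodine calls of Plod3, Fkbp10, Sec23a, Bmp1 and Itgb1 were lost with median scaling.

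Of the enzymes that hydroxylate and glycosylate collagen chains, 6 of 14 fell on the low-iodine diet. P3h3, of the prolyl 3-hydroxylase family, fell by 1.43 ± 0.23, the lysyl hydroxylases Plod1 and Plod3 by 1.14 ± 0.22 and 0.76 ± 0.17, and the glycosyltransferase Colgalt2 by 1.49 ± 0.30. The main prolyl 4-hydroxylase genes P4ha1 and P4ha2 were not called, at −0.12 and −0.13. Among chaperones and export factors 4 of 11 fell: Serpinh1, the collagen chaperone of the endoplasmic reticulum, by 1.40 ± 0.29, the matrix chaperone Sparc by 1.96 ± 0.20, Fkbp10 by 0.71 ± 0.14 and the coat protein Sec23a by 0.59 ± 0.16. The last call was lost in 6 of 28 alternatives.

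Of the genes that trim the ends of procollagen, 3 of 7 fell. Pcolce, an enhancer of that step, fell by 1.95 ± 0.23, the protease Adamts2 by 1.71 ± 0.25 and the protease Bmp1 by 1.15 ± 0.33, a call that 8 of 28 alternatives lost. Pcolce2 was not called at −0.56. Of the crosslinking lysyl oxidases 4 of 5 fell: Lox by 2.36 ± 0.42, Loxl1 by 2.02 ± 0.32, Loxl3 by 1.86 ± 0.33 and Loxl4 by 1.48 ± 0.25. Loxl2 differed by −0.51 and was not called.

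Among the proteins that shape fibrils, 6 of 13 fell and decorin rose. Postn (periostin) fell by 3.21 ± 0.37, Fn1 (fibronectin) by 2.45 ± 0.33, Bgn (biglycan) by 2.16 ± 0.24 and Tnxb (tenascin X) by 1.29 ± 0.24. Dcn, a small proteoglycan that binds collagen fibrils and is close kin of biglycan, rose by 0.99 ± 0.23 (adjusted p = 0.0076, limma), a call lost without scaling and in the low-iodine arrays alone. Of the collagen receptors 6 of 9 fell, among them the integrin genes Itga2 by 2.20 ± 0.39 and Itgb1 by 0.98 ± 0.19, the kinase Ddr2 by 1.22 ± 0.24 and the uptake receptor Mrc2 by 1.53 ± 0.27, a call lost with the mean of its probes. Itga2 exceeded background clearly on 2 of the 4 KO2 arrays.

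**Figure D4:**
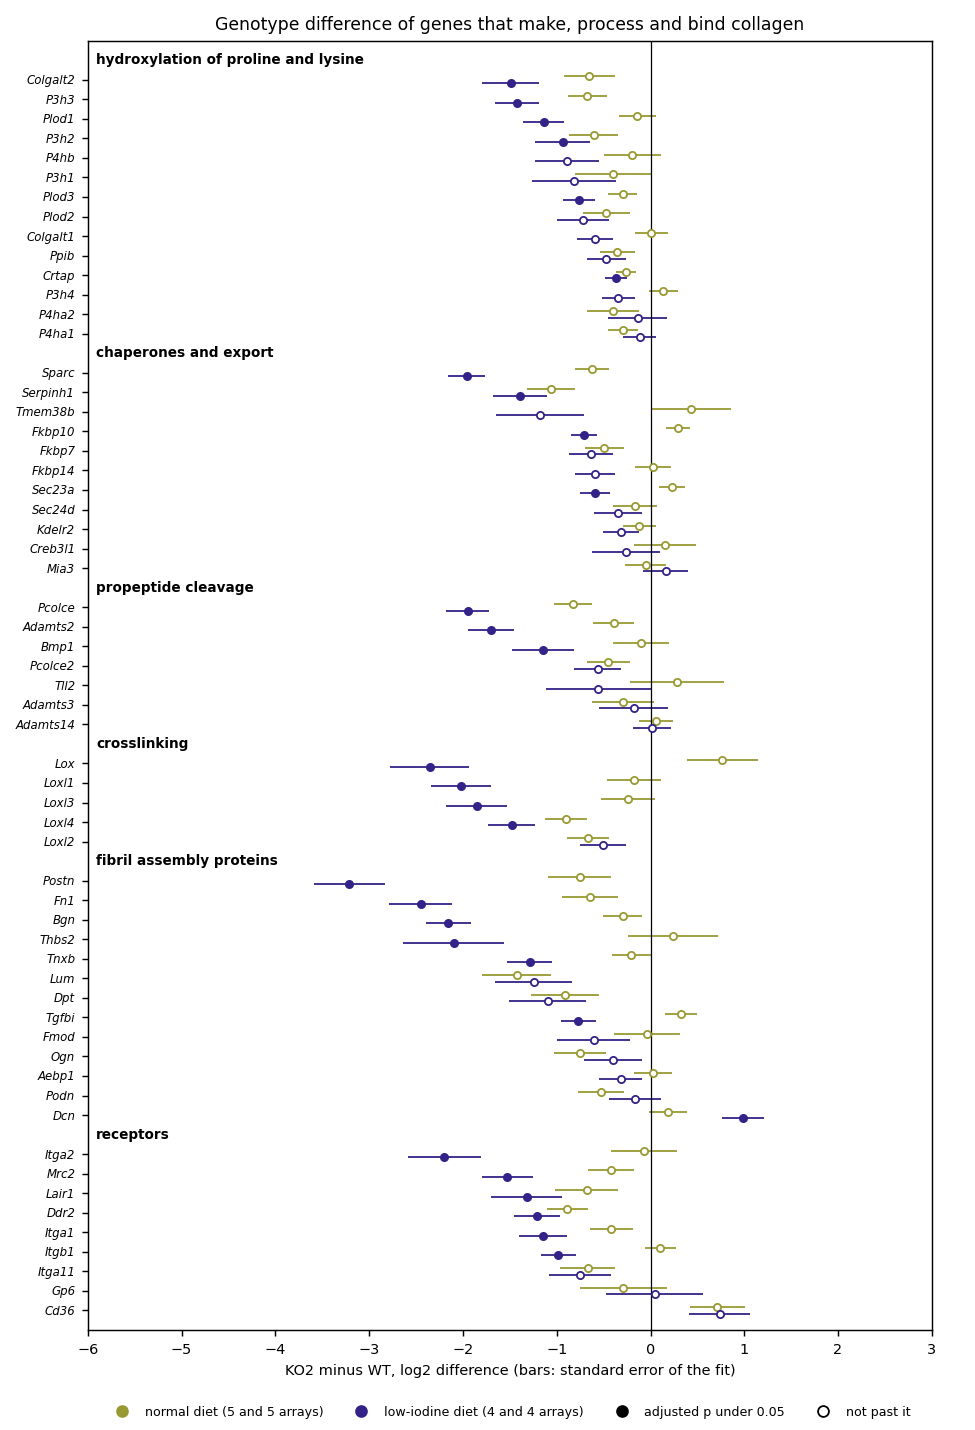
Difference in log2 level between KO2 and WT thyroid (x axis, bars are the standard error of the fit) for 59 genes that make, process, anchor or sense collagen, by list, on the normal diet (olive) and the low-iodine diet (indigo). Filled points passed an adjusted p of 0.05: 0 on the normal diet and 30 on the low-iodine diet, all below 0 except Dcn.

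The genotype effect differed between diets for 8 of these 59 genes, all more negative on the low-iodine diet. Over all genes 1.22% were called in this test, 0.865% more negative and 0.357% more positive. Lox differed most, at −3.12 ± 0.57 (adjusted p = 0.013, limma), with a normal-diet difference of 0.76 that was not called, and it held in all 27 alternatives. Postn stood at −2.46 ± 0.50, Bgn at −1.86 ± 0.32, Sparc at −1.34 ± 0.27 and Fkbp10 at −1.0 ± 0.19, and each was lost in 1 to 3 alternatives. Loxl1, Tgfbi and Itgb1 also passed, but 18 to 20 of 27 alternatives lost them.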

How the data were processed

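RNA from thyroids of 18 mice was amplified and labelled with Cy3, and hybridised to 1-colour Agilent mouse arrays, per the labels' protocols. Agilent Feature Extraction (version 12, per the submitters' processing notes) turned the scans into the deposited values, per the file headers a processed signal for each spot: an intensity, linear and with the background subtracted. The deposited summary table held the same intensity (ratio 1), with no further scaling.

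Here the 75th percentile of the log2 intensity was subtracted on each array, after control spots and flagged spots were left out, and spots of a probe were averaged. Of 41174 probes, 28223 (68.5%) were matched by accession to 1 gene of the GRCm38.p6 table, 0 to several and 12951 to none; 82 probes were dropped because an array had only flagged spots of them, and 0 spots were saturated. Probes that stood clearly above background on 4 or more of 18 arrays were kept, 26518 with a gene name, and the brightest stood for its gene. The number of arrays limits the precision.

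limma 3.58.1 (R 4.3.3; Python 3.11.15, pandas 2.3.3) fitted the 4 group means to 17928 genes over 18 arrays, with 5 contrasts and Benjamini-Hochberg adjustment over all genes; it was tested on simulated data. Adjusted p-values of further probes come from the same fit over all 26518 probes. Alternatives changed the background correction, the scaling, the filter, the probe rule, the slide and replicate blocks and the arrays used. Groups came from the titles, and the spread is that between mice.

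Members and lists were chosen with earlier results of these data known, so no list was tested. The rule for named genes asked for values on every array for each member called in any contrast and for all fibrillar and basement membrane members, and for up to 4 genes of each processing list; members called in the diet contrasts alone are given by range instead, since array set and diet cannot be told apart.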

Additional observations from a re-analysis of the deposited data

Results flagged for a closer look

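Of 168 sets of arrays, 1 for each member and group, 9 held an array far from the others by Dixon's criterion, and chance gives about 1 in 20. Col1a2 on KO2 replicate 1 of the normal diet read 1.84, with the nearest other at 2.96. Col18a1 on KO2 replicate 4 of the normal diet read 4.48, with the nearest at 3.22. KO2 replicate 5 of that diet was lowest for Col11a2 at −3.14 and for Col22a1 at −3.83. Among the low-iodine arrays, WT replicate 2 was highest for Col6a6 at −1.47 and for Col24a1 at −2.48, KO2 replicate 3 was lowest for Col6a1 at −2.25, and KO2 replicate 4 was lowest for Col25a1 at −1.69 and for Col27a1 at −3.49. WT replicate 2 of the low-iodine diet also had the highest median signal of the 18 arrays.

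The genotype difference was not alike on the diets for Col4a1 (−1.75), Col4a2 (−1.41), Col5a3 (−1.45) and Col8a1 (−1.85), by limma's test of the difference (adjusted p = 0.013, 0.023, 0.031 and 0.023), and each was more negative on the low-iodine diet.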

How the results depend on the processing

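The count of members called between genotypes on the normal diet was 8. It was 5 with the mean of probes, 6 with median or quantile scaling, 0 with the normal-diet arrays alone and 3 to 10 when 1 array was left out. With another background correction 11 members were called lower and 1 higher. On the low-iodine diet the count of 19 stayed within 1.5 times in all alternatives run. The test of the difference between diets called 4 members, 0 with median scaling, 9 with quantile scaling and 1 to 7 when 1 array was left out. The values recomputed between diets were those of 4 members (Col4a1, Col4a2, Col5a3 and Col8a1). In 5 cases a single value turned in sign and at least 1 of the 2 values was called. These were Col4a6 on the low-iodine diet with its second probe (−0.75) and Col6a3 there with its dim probe (0.27). The others were Col8a1 between diets in WT with the mean of probes (1.32) or its second probe (4.98), and in KO2 with its second probe (2.92). Turns in sign where neither value was called are not among them. Of 25 members with several probes, all probes had the same sign for 19 on the normal diet and 21 on the low-iodine diet. In the test of the difference this held for 20. Over the values of single members, 134 reference values had 3635 alternatives on the same side of the threshold, 102 that lost a call, 49 that gained one and 5 that changed direction.

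With the replicate number as a block, 7 members were called on the normal diet (6 lower, 1 higher), 18 on the low-iodine diet and 4 in the test of the difference. Whether the numbers pair mice is not known here, and correlations between arrays cannot decide it. Same-numbered arrays correlated at −0.04 to 0.32 on the normal diet and 0.03 to 0.13 on the low-iodine diet. Of them, 1 of 5 and 3 of 4 correlated best with their own number. The background correction planned on mean signals was not run, since the scanner tables used here hold median signals; the version on medians was chosen after seeing the data. The cause of these shifts was not tested. Signal limits Col6a5, Col6a6, Col10a1 and Col24a1, which were at background on most normal-diet arrays.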
